A study of Mus musculus with 6 samples.

Results

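The NKG2 proteins, their partner CD94, KLRG1 and a few relatives are C-type lectin-like receptors of natural killer (NK) cells and of effector CD8+ T cells, and they were read here in liver CD8+ T cells that lacked or carried the chemokine receptor CXCR3. They were followed through 9 genes (Klrg1, Klrk1, Klrd1, Klrc1, Klrc2, Klrc3, Klre1, Klri2 and Klrb1f), taken by gene name from the non-control probes of an Agilent one-colour array. The 9 genes had 16 probes of 60 bases among 41174 distinct probes. Of these, 13 probes of 8 genes were well above background on 3 or more of the 6 arrays and were tested, in a table of 16395 genes. Klri2 was not well above background on any array.

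The cells came from the livers of female mice of the C57BL/6 background, 13 to 14 weeks of age, and had been sorted as CD8+ T cells. The TGC3 group (dnTGFβRII CXCR3-/-, 3 arrays) lacked CXCR3 and carried the dnTGFβRII transgene, a dominant negative TGF-beta receptor II. The TG group (dnTGFβRII, 3 arrays) carried the same transgene with CXCR3 present, so that no sample had intact TGF-beta signalling by genotype, and there was no wild-type group. In the widely used line of this name the transgene is driven by a CD4 promoter that is active in CD4+ and CD8+ T cells; the labels do not give the promoter. The labels also do not say whether each array was a separate mouse or a pool, so the p-values speak only for the spread among these arrays, which may be technical. The question of the study was how CXCR3 bears on activation and proliferation of these cells.

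Most of these receptors are encoded side by side in the NK gene complex. NKG2A (Klrc1) forms an inhibitory receptor with CD94 (Klrd1), and NKG2C (Klrc2) and NKG2E (Klrc3) form activating receptors with the same partner. All these heterodimers recognise Qa-1 (H2-T23), a nonclassical MHC molecule that presents leader peptides of other class I molecules. NKG2D (Klrk1) pairs with itself and sees stress-induced ligands, and KLRG1 binds cadherins and marks effector CD8+ T cells late in differentiation.

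The probes for the NKG2 chains are shown first, because the results turn on whether they read the same transcript. The following sequences are those of the Klrc1 and Klrc3 probes whose coordinates span an intron (junction probes) and of the Klrd1 probe, 5′ to 3′ in lower case throughout.
Klrc1: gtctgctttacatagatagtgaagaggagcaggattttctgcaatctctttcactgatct
Klrc3: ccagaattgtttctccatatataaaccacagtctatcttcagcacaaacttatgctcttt
Klrd1: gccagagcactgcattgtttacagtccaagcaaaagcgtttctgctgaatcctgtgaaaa
Per the files, these lie in mm9 at chr6:129625391-129627196 (Klrc1, minus strand), chr6:129591548-129592745 (Klrc3, minus strand) and chr6:129548391-129548450 (Klrd1, plus strand). Over the 113 pairs of probes for different receptors, the longest run of bases shared by a pair was 9. Probes were compared only with each other and not with transcripts. Whether a probe also binds the transcript of another receptor was therefore not tested.

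A second probe for Klrc2 was different. It matched RefSeq (GRCm38.p6) in full at chr6:129660610-129660669 on the minus strand, in the Klrc2 promoter window, and at 58 of 60 bases in the Klrc3 promoter window, at chr6:129643342-129643401. The file places this probe in mm9 at chr6:129610628-129610687. The probe and the Klrc3 stretch are printed with the bases that differ in capitals.
Klrc2: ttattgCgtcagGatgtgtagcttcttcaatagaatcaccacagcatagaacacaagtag
Klrc3: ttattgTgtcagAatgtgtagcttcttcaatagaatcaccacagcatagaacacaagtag
Counted from the 5′ end of the probe, the differences are C7T and G13A. With 58 of 60 bases equal, this probe may read transcripts of Klrc2 and of Klrc3 that begin upstream of the RefSeq start. Whether it tells them apart was not tested. The promoter windows of both genes were compared without gaps from their 3′ ends, over 280 of their bases, and were equal at 277 (98.9%). The bases before these hold a run of t of unequal length and were left out. For Klrc1 and Klrc2 the best of many offsets, also without gaps, gave 34.8% of 256 bases equal. An inserted or lost base can hide likeness there, so this value does not show how alike those windows are. The other Klrc2 probe, which gave the gene's value below, had no such match in the promoter windows of these receptors. With Klrc3 probes both Klrc2 probes shared at most 7 bases in a run, so that comparison does not set them apart. Whether the other probe binds Klrc3 transcripts was not tested.

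The deletion was visible in each array. Cxcr3 had signals of 23.8, 32.95 and 27.0 intensity units on TGC3 1, TGC3 2 and TGC3 3, against 68779, 66107 and 73352 on TG 1, TG 2 and TG 3, a change of -11.35 ± 0.12 on the log2 scale (limma adjusted p = 9.6e-07). The 75th percentile of the signal, by which every array was scaled, was 594 to 623 on TGC3 arrays and 561 to 620 on TG arrays. TGC3 2 gave the highest share of probes above background, 63.8%, against 58.9% to 61.4% on the other arrays. All 9 T cell markers were above background on every array, Cd3e, Cd8a and Cd8b1 among them, and 3 were lower in TGC3 (Cd5, Cd3g and Cd3d). All 10 NK cell markers were also above background on every array, and 2 were lower, Fcer1g and Tyrobp. CD8+ T cells with effector features express part of that list. The NK markers summed to 17.9 to 21.5 times the 75th percentile on TGC3 arrays and 27.4 to 29.8 times on TG arrays. The summed neutrophil markers reached 7.85 on TGC3 2, 1.65 on TGC3 1 and 3.02 on TGC3 3, against 0.38 to 0.46 on TG arrays. The summed macrophage markers gave 3.52 on TGC3 2, 1.19 on TGC3 1 and 1.41 on TGC3 3, against 0.75 to 0.93 on TG arrays. The neutrophil list had 2 of 4 tested genes higher (S100a8 and S100a9) and 1 lower (Mmp9), the macrophage list 3 of 6 higher (Lyz2, Marco and C1qb) and 0 lower, and the B cell list 3 of 4 higher (Ms4a1 and Cd79a among them) and 0 lower. By the test described below, 16.6% of all genes were higher and 9.45% lower. S100a8 and Ms4a1 were above background on 3 TGC3 arrays and 0 TG arrays, so they were tested only through TGC3. S100a9 was above background on 3 TGC3 arrays and 1 TG array. For these genes the filter leaned towards a higher value in TGC3, so their calls add little to the counts. Of the dendritic cell list 2 of 5 were higher (Zbtb46 and Flt3) and 1 lower (Ccr9), and of the gamma-delta and innate-like list 1 of 4 was higher (Maf) and 2 lower (Cd163l1 and 5830411N06Rik). Of the hepatocyte list only Apoe was tested, with no call. In sorted cells read in bulk, fewer cells with a receptor and less of its RNA per cell cannot be told apart. The TGC3 arrays shared a slide and a scan and the TG arrays another, so slide and genotype cannot be told apart.

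None of the 8 tested receptors passed the threshold between TGC3 and TG when all 6 arrays were used. The test was limma on scaled log2 signal (the log2 signal minus that of the array's 75th percentile), with a threshold of 0.05 on p-values adjusted by Benjamini-Hochberg across the 16395 genes. By the same test 26.1% of all genes passed, 16.6% higher and 9.45% lower in TGC3. At the level of probes 0 of 13 passed, against 22.1% of all probes. The unadjusted p was also above 0.05 for all 8 genes, the smallest being 0.0546 for Klrg1. Of the fitted changes 3 were above 0 (Klrg1, Klrk1 and Klrb1f) and 5 below 0 (Klrd1, Klrc1, Klrc2, Klrc3 and Klre1). Their median was -0.32 on the log2 scale, against -0.01 over all genes.

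**Figure D1:**
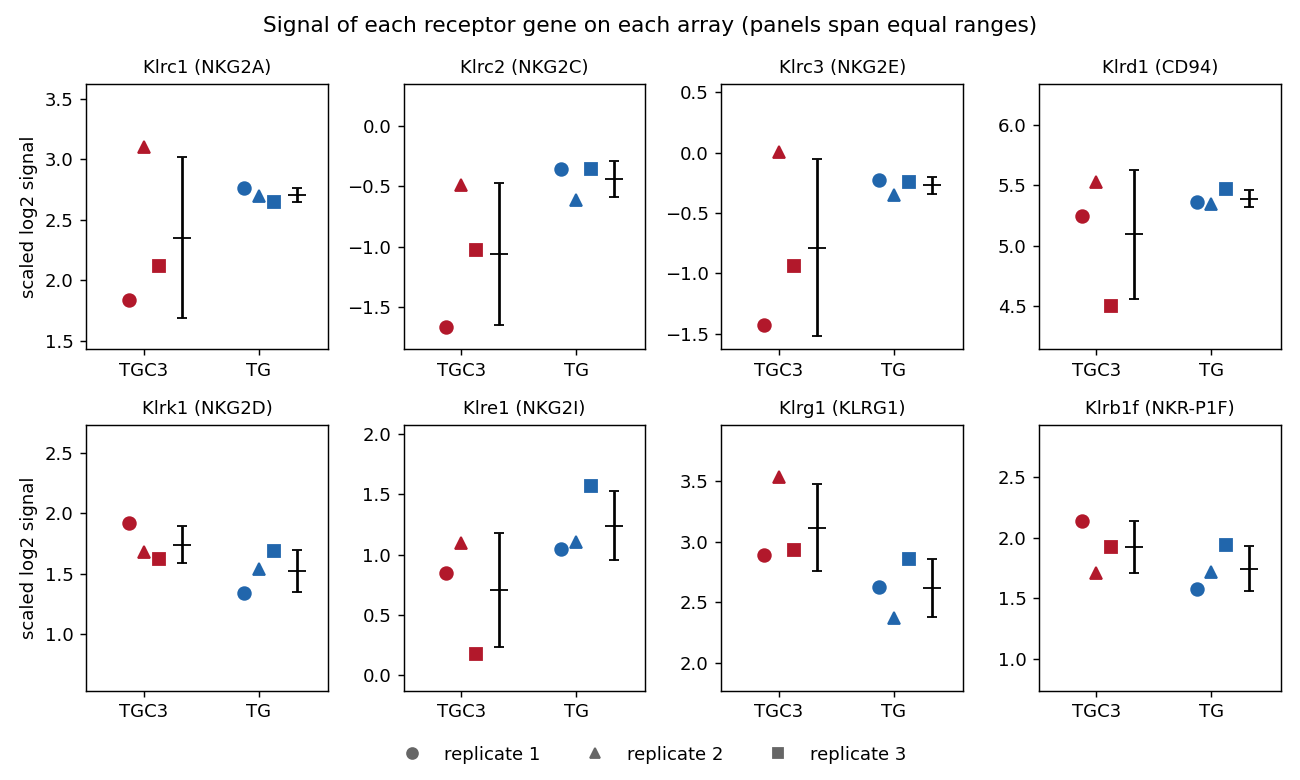
Scaled log2 signal (log2 signal minus the array's 75th percentile) of the 8 tested receptors, with a point for each array (circle, triangle and square for replicates 1, 2 and 3), TGC3 left of TG, and a bar at each group mean ± SD (n = 3 each). TGC3 2 is the highest TGC3 point for Klrg1, Klrd1, Klrc1, Klrc2, Klrc3 and Klre1, and the groups overlap for every receptor but Klrg1.

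**Figure D2:**
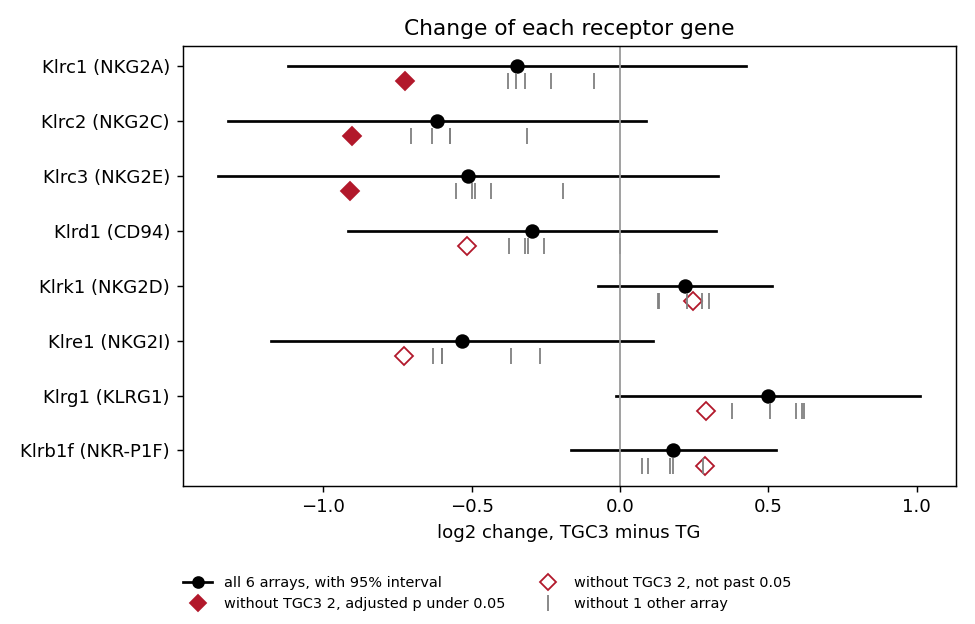
Fitted log2 change, TGC3 minus TG, of each tested receptor with all 6 arrays (black, with its 95% interval), without TGC3 2 (diamonds, filled where past the threshold) and without each other array (ticks). The intervals from all arrays reach across 0 for all 8 receptors, and without TGC3 2 the diamonds are filled for Klrc1, Klrc2 and Klrc3.

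Klrc1 encodes NKG2A, the inhibitory chain. Its signal was 2117, 5255 and 2708 on TGC3 1 to TGC3 3, against 3804, 3721 and 3877 on TG 1 to TG 3. TGC3 2 lay above all TG arrays while TGC3 1 and TGC3 3 lay below them, so that the groups overlapped. The fitted change was -0.35 ± 0.32 on the log2 scale (SE, n = 3 each; 95% interval -1.12 to 0.42; limma adjusted p = 0.455). The junction probe printed above gave the same picture at a lower signal. It read 234.7, 572 and 349 on TGC3 arrays, against 440, 415 and 511 on TG arrays, with a change of -0.39 ± 0.30.

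Klrc2 encodes NKG2C, an activating chain that signals through the adaptor DAP12. Its brighter probe read 187, 436 and 306 on TGC3 arrays, against 440, 374 and 485 on TG arrays. TGC3 1 and TGC3 3 lay below every TG array and TGC3 2 lay among them. The change was -0.62 ± 0.29 (95% interval -1.32 to 0.09; limma adjusted p = 0.167). The probe shared with the Klrc3 upstream stretch read 57.9 and 37.0 on TGC3 2 and TGC3 3 and was not well above background on TGC3 1, against 48.7, 46.9 and 33.8 on TG arrays. Its change was -0.48 ± 0.48, an error as large as the value.

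Klrc3 encodes NKG2E, the third chain that pairs with CD94. Its signal was 221, 614 and 324 on TGC3 arrays, against 480, 449 and 524 on TG arrays. Again TGC3 2 exceeded every TG array while the other TGC3 arrays were below all of them. The change was -0.51 ± 0.35 (95% interval -1.36 to 0.33; limma adjusted p = 0.315). The junction probe, with 26.0, 55.2 and 43.7 on TGC3 arrays and 54.1, 48.6 and 88.5 on TG arrays, gave -0.69 ± 0.31.

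All 6 probes of the NKG2A, NKG2C and NKG2E genes thus ranked the TGC3 arrays alike, with TGC3 2 highest, TGC3 3 next and TGC3 1 lowest. Pearson's r over the 6 arrays was 0.967 between the Klrc1 probes, 0.849 between the Klrc2 probes and 0.845 between the Klrc3 probes. After the group means were subtracted, r over the 6 arrays was 0.986 between Klrc1 and Klrc3, 0.961 between Klrc2 and Klrc3 and 0.905 between Klrc1 and Klrc2. These are descriptions over 6 arrays with shared slides, in which TGC3 2 weighs heavily. Whether a probe of any of these genes also read another of them was not tested.

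**Figure D3:**
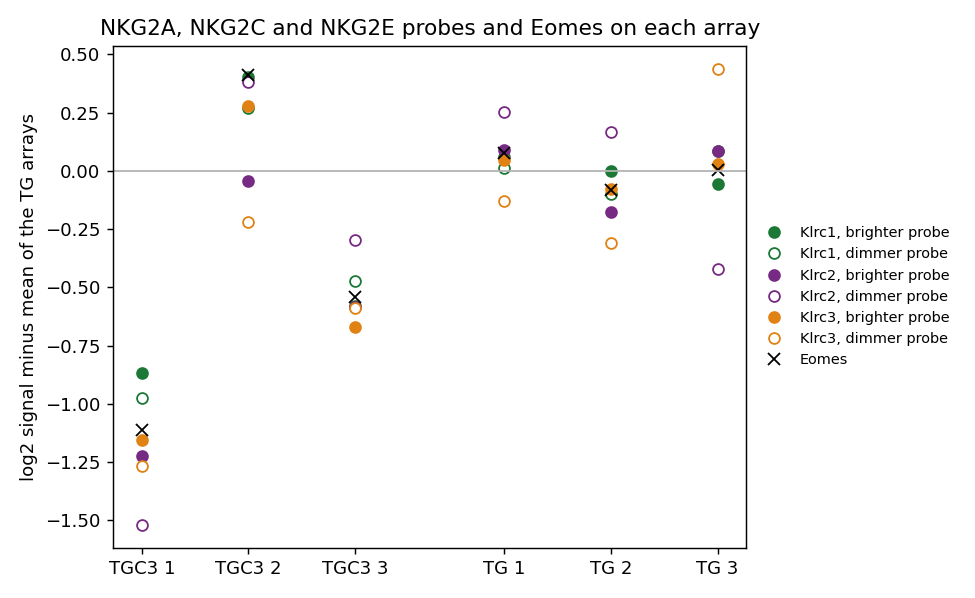
Scaled log2 signal of each of the 6 probes for Klrc1, Klrc2 and Klrc3 (circles) and of Eomes (crosses) on each array, minus its mean over the TG arrays, TGC3 arrays left of TG arrays. On the TGC3 arrays every probe is highest at TGC3 2 and lowest at TGC3 1.

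For these genes TGC3 2 was the only TGC3 array not below every TG array, so leaving it out had to end the overlap. It also brought all 3 genes past the threshold, in a fit of 2 TGC3 arrays against 3 TG arrays. Klrc1 was then lower in TGC3 by -0.72 ± 0.10 on the log2 scale (limma adjusted p = 0.0136), Klrc2 by -0.90 ± 0.21 (adjusted p = 0.0394) and Klrc3 by -0.91 ± 0.16 (adjusted p = 0.0194). No other receptor passed without TGC3 2. In that fit 23.6% of all genes passed, 14.4% higher and 9.17% lower. With array weights from limma, which gave TGC3 2 the least weight of the 6 arrays (0.39), only Klrc2 among the receptors was lower, by -0.90 ± 0.25 (adjusted p = 0.0373), against 14.7% of all genes. Leaving out TGC3 1, the lowest of the TGC3 arrays for these genes, moved the values the other way. They were then -0.09 for Klrc1 (limma adjusted p = 0.854), -0.31 for Klrc2 (adjusted p = 0.296) and -0.19 for Klrc3 (adjusted p = 0.662). TGC3 2, the array that decides the calls, is also the one with the highest summed neutrophil and macrophage markers among all 6. Of the macrophage markers named above, Lyz2 was highest on TGC3 2 (scaled log2 1.16). Marco was highest on TGC3 1 (-2.21) and C1qb on TGC3 3 (-2.76), so the macrophage sum does not speak for each marker. The other tested macrophage markers, Lyz1 (-1.87), Cd68 (-1.09) and Csf1r (-2.21), were also highest on TGC3 2, and none of them passed between the groups. Without TGC3 2, 4 of 10 NK markers were lower in TGC3, against 2 with all arrays. The part of other cell types in the result was not tested. Nothing in the labels sets TGC3 2 apart from the other TGC3 samples.

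CD94, the shared partner encoded by Klrd1, was read by 1 probe. Its signal was 22540, 28242 and 14133 on TGC3 arrays, against 23064, 23254 and 27443 on TG arrays. TGC3 3, not TGC3 1, was the low array, and TGC3 2 the highest of all 6. The change was -0.30 ± 0.26 (95% interval -0.92 to 0.32; limma adjusted p = 0.430), and it was -0.52 ± 0.22 without TGC3 2 (adjusted p = 0.158). Without the low array, TGC3 3, it was -0.0017 ± 0.11 (adjusted p = 0.994), so that the value rests on TGC3 3. After subtraction of group means, r over the 6 arrays was 0.911 between Klrd1 and Klre1 and 0.533 between Klrd1 and Klrc1.

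Whether the NKG2 chains changed by unequal amounts was asked per array, as the difference of scaled log2 values. Klrc1 minus Klrc3 was 3.26, 3.098 and 3.06 on TGC3 arrays, against 2.99, 3.05 and 2.89 on TG arrays. These groups did not overlap, but only by a small margin, and the difference of the changes was 0.17 (two-sided exact permutation p = 0.1, the smallest that 3 against 3 allows). For Klrc1 minus Klrc2, an inhibitory against an activating chain, it was 0.27 (exact p = 0.2). For Klrc1 minus Klrd1, a chain against its partner, it was -0.05 (exact p = 1). Across the 4 pairs compared, Klrg1 minus Klrk1 included, no adjusted p was below 0.4, and with these numbers none could pass 0.05.

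Klrk1, the NKG2D gene, had signals of 2245, 1961 and 1920 on TGC3 arrays, against 1424, 1668 and 1996 on TG arrays. TG 3 lay above TGC3 2 and TGC3 3, so the groups overlapped. The change was 0.22 ± 0.12 (95% interval -0.08 to 0.51; limma adjusted p = 0.229), and the second probe gave 0.04 ± 0.13. Without TGC3 1 or without TG 1 the change was 0.13. As a ratio, the interval for NKG2D ran between 0.949 and 1.43.

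Klre1 encodes a chain without signalling motifs that in mice pairs with a KLRI chain, either inhibitory KLRI1 or activating KLRI2. Its signal was 1067, 1307 and 706 on TGC3 arrays, against 1158, 1231 and 1842 on TG arrays. TGC3 3 was lowest and TG 3 highest, and the other 4 arrays lay close together. The change was -0.53 ± 0.26 (95% interval -1.18 to 0.11; limma adjusted p = 0.187), and it was -0.27 ± 0.19 without TGC3 3 (adjusted p = 0.372). A second Klre1 probe and both Klri2 probes were not well above background on any array, the Klri2 probes with signals of 2.9 to 11.9. No comparison of Klre1 with a partner chain was therefore made, and Klri1 was not analysed here.

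KLRG1, an inhibitory receptor for E-, N- and R-cadherin, was the only receptor whose groups did not overlap on the brightest probe of the gene. Its signal was 4390, 7076 and 4743 on TGC3 arrays, against 3465, 2961 and 4490 on TG arrays. On the scaled log2 scale the lowest TGC3 value was 2.89 and the highest TG value 2.86. Groups did not overlap for 46.7% of all genes, and for 24.3% they lay apart with TGC3 above TG, so that 1 of 8 was below the share in all genes. The change was 0.50 ± 0.21, or 1.41-fold (95% interval -0.01 to 1.01 on the log2 scale; limma adjusted p = 0.133). Without TGC3 2 it was 0.29 ± 0.15 (adjusted p = 0.220).

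Klrb1f encodes NKR-P1F, which binds Clr proteins of the Clec2 family. Its signal was 2613, 2000 and 2362 on TGC3 arrays, against 1669, 1887 and 2383 on TG arrays. TG 3 exceeded 2 of the 3 TGC3 arrays. The change was 0.18 ± 0.14 (95% interval -0.17 to 0.52; limma adjusted p = 0.391), and it was 0.07 without TGC3 1 and 0.09 without TG 1. A dimmer second probe read 211, 154 and 185 on TGC3 arrays, against 121, 128 and 146 on TG arrays, with no overlap and a change of 0.41 ± 0.13 (adjusted p = 0.0695).

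Most of these receptors spread more over the TGC3 arrays than over the TG arrays. For Klrc1 the SD of scaled log2 values was 0.67 over the TGC3 arrays and 0.06 over the TG arrays, 11.5 times apart. The same SDs were 0.73 and 0.07 for Klrc3, 0.53 and 0.07 for Klrd1 and 0.59 and 0.15 for Klrc2. As folds between the lowest and highest TGC3 array, this was 2.42 for Klrc1, 2.70 for Klrc3, 2.04 for Klrd1 and 2.26 for Klrc2. The corresponding TG folds were between 1.08 and 1.20. Only 2.13% of all genes had a larger TGC3 SD than Klrc1, and 1.74% a larger one than Klrc3. For Klrk1 and Klrb1f the SDs were 0.16 and 0.21 in TGC3, against 0.17 and 0.19 in TG. The median SD of the 8 receptors was 0.50 in TGC3 and 0.16 in TG, and over all genes it was 0.11 in TGC3 and 0.10 in TG. No test of unequal spread was run with 3 arrays in a group.

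**Figure D4:**
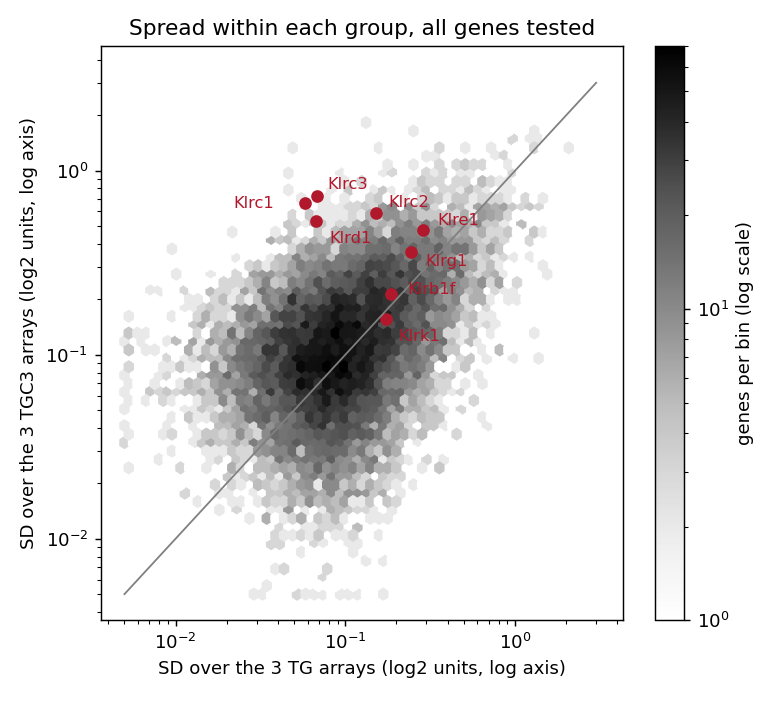
SD of scaled log2 signal over the 3 TGC3 arrays (vertical axis) against that over the 3 TG arrays (horizontal axis), both axes logarithmic, with the density of all 16395 tested genes in grey (the smallest SDs are drawn at a common lower limit) and the 8 receptors as named points. Klrc1, Klrc3 and Klrd1 lie far above the line of equal SD, and Klrk1 and Klrb1f lie close to it.

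The arrays farthest out in TGC3 differed between the receptors. The excess of TGC3 2 over the mean of the other TGC3 arrays was 1.13 on the log2 scale for Klrc1, 1.19 for Klrc3 and 0.86 for Klrc2, and 0.91%, 0.79% and 1.70% of all genes had a larger one. For Klrd1 it was 0.66, for Klrg1 0.63 and for Klre1 0.59. Klrk1 and Klrb1f went the other way, at -0.09 and -0.32. The shortfall of TGC3 1 against the mean of the other TGC3 arrays was -0.91 for Klrc2, larger in size than the excess of TGC3 2, and it was -0.78 for Klrc1 and -0.96 for Klrc3. For Klrd1 and Klre1 the low array TGC3 3 lay farther from the other TGC3 arrays than TGC3 2 did. The median excess of TGC3 2 was 0.64 over the receptors and 0.02 over all genes.

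Adaptors that carry the activating signals were read by 3 genes, and 2 were lower in TGC3, against 9.45% of all genes. Tyrobp, the DAP12 gene, had scaled log2 values of 2.06, 2.02 and 1.51 on TGC3 arrays, against 2.62, 2.73 and 2.48 on TG arrays. Every TGC3 array lay below every TG array, by -0.75 ± 0.16 on average (limma adjusted p = 0.0220). Fcer1g, an ITAM adaptor of Fc receptors and of some NK receptors, fell by 0.93 ± 0.20 (adjusted p = 0.0230), though not past the threshold without TGC3 2 (-0.80, adjusted p = 0.0546). Hcst, which encodes DAP10, the adaptor of NKG2D, gave -0.06 ± 0.10 (adjusted p = 0.652). TGC3 2 was the highest TGC3 array for none of these 3 adaptors.

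Known and possible ligands of these receptors were listed as 19 genes, of which 14 were on the array and 9 were tested. The Clec2 genes were listed as a family, and whether each encodes a ligand of NKR-P1F was not examined. Of the 9, 1 was higher and 3 were lower in TGC3, with a median change of -0.09. Over all genes 16.6% were higher and 9.45% lower. H2-T23, the Qa-1 gene, gave -0.09 ± 0.07 (limma adjusted p = 0.332). Clec2i and Clec2g, which encode Clr proteins, fell by 0.56 ± 0.07 (adjusted p = 0.00489) and by 0.51 ± 0.07 (adjusted p = 0.00640). Clec2d, which encodes the NKR-P1 ligand Clr-b, fell by 0.36 ± 0.10 (adjusted p = 0.0495), and it did not pass without TGC3 2 (adjusted p = 0.109). Raet1a, a ligand of NKG2D, read 118, 85.8 and 39.2 on TGC3 arrays, against 6.16, 17.3 and 4.70 on TG arrays, only 1 of which was above background. By group means it was at least 4.90-fold higher in TGC3 (adjusted p = 0.0170). As for S100a9, the filter leaned towards a higher value in TGC3, so this call adds little to the count. Near-identical Raet1 copies make the name of this transcript uncertain. Cdh1, the gene of the KLRG1 ligand E-cadherin, gave -1.34 ± 0.48 (adjusted p = 0.0885), and -1.86 without TGC3 2 (adjusted p = 0.0130). Its scaled log2 values were low, -5.25 to -2.73, and it was above background on at most 5 arrays. The size of its change is therefore uncertain.

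Of 15 genes that act downstream of these receptors, 1 was higher and 3 were lower in TGC3, with a median of -0.20. By the same test 16.6% of all genes were higher and 9.45% lower. Ptpn6, the phosphatase SHP-1 that inhibitory chains recruit, fell by 0.42 ± 0.10 (limma adjusted p = 0.0328). Pik3r1, a regulatory subunit of the PI3 kinase that DAP10 engages, fell by 0.36 ± 0.09 (adjusted p = 0.0335). Vav2, a guanine exchange factor, rose by 0.68 ± 0.10 (adjusted p = 0.00666), while the Vav1 change was -0.25 ± 0.07 (adjusted p = 0.0358). Without TGC3 2 the counts were 1 higher and 1 lower, and Ptpn6 and Vav1 no longer passed. Among 10 genes of cytokines, cytokine receptors and STAT5 factors known to bear on NKG2 levels, 1 was higher and 2 were lower. Il15, whose product raises these receptors on T cells, rose by 0.52 ± 0.11 (adjusted p = 0.0197). Il15ra fell by 0.27 ± 0.07 (adjusted p = 0.0309) and Il2rg by 0.26 ± 0.07 (adjusted p = 0.0359), both no longer past the threshold without TGC3 2. The shared beta chain gene Il2rb gave -0.30 ± 0.10 (adjusted p = 0.0821).

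Genes that are high in KLRG1+ effector CD8+ T cells were counted beside Klrg1. Of 10 tested, 1 was higher and 0 were lower in TGC3, with a median of 0.08. The shares over all genes were 16.6% higher and 9.45% lower. Zeb2, a transcription factor of terminal effector cells, had scaled log2 values of 1.43, 1.93 and 1.53 on TGC3 arrays, against 0.82, 0.59 and 1.07 on TG arrays, a rise of 0.80 ± 0.18 (limma adjusted p = 0.0225). Cx3cr1, a receptor of such cells, gave 0.45 ± 0.25 (adjusted p = 0.236) and Tbx21, the T-bet gene, -0.07 ± 0.07 (adjusted p = 0.515). Of 10 genes that are low in KLRG1+ cells, 0 were higher and 4 were lower, with a median of -0.40. Without TGC3 2, 6 were lower, against 9.17% of all genes in that fit. Ccr7, the lymph node homing receptor, fell by 0.91 ± 0.14 (adjusted p = 0.00787). Bcl6, a transcriptional repressor of memory precursors, fell by 0.49 ± 0.08 (adjusted p = 0.0109). Il7r, the receptor chain that KLRG1+ cells lose, gave 0.22 ± 0.09 (adjusted p = 0.114).

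Eomes, the T-box factor of memory CD8+ T cells and NK cells, had a profile close to that of Klrc1. Its scaled log2 values were 1.09, 2.61 and 1.66 on TGC3 arrays, against 2.28, 2.12 and 2.205 on TG arrays. As with Klrc1 and Klrc3, TGC3 2 lay above all TG arrays and the other TGC3 arrays below them. The change was -0.41 ± 0.36 (limma adjusted p = 0.442), and it was -0.83 without TGC3 2 (adjusted p = 0.0340).

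Likeness to a receptor was measured as Pearson's r over the 6 arrays. Eomes was the third closest gene to Klrc1 on scaled values (r = 0.985), after Pdlim1 (r = 0.993) and Sbsn (r = 0.985) and before Cd300lf and Ociad2. After subtraction of group means the 5 closest to Klrc1 were Thoc6, Wdr95, Crtac1, Epha3 and Pou2af1, without Eomes. Both rankings for Klrc1 were made after its values had been seen. For Klrg1 the closest on scaled values were Sdhb, Pycard, Rfc5, Mrpl16 and Dstn, and for Klrd1 they were Slirp, Tspyl3, Ubxn1, Pnmal1 and Sugp1. After subtraction of group means they were Chpt1, Ckap2l, Txn2, Mybl2 and Sdhb for Klrg1 and Sycn, Nlrc4, Prpf18, Rrm2b and Tesk2 for Klrd1. High values are common with 6 arrays: 5.62% of the genes compared had r above 0.9 with Klrg1 after that subtraction.

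In the surrounding NK gene complex from Klrb1a to the transcript NAP062461-1 (mm9, chr6:128568515-130359077), 30 genes were tested, 7 of them the receptors described here. Of the 30, 1 was higher and 8 were lower in TGC3, 30% in all, with a median of -0.39. The share that passed in the whole table was 26.1%, with 16.6% higher and 9.45% lower. None of the 7 receptors was among them. The lower genes included Clec2i, Clec2g and Clec2d on the side of Klrb1f, and Klra6, Klra7, Klra10 and Klra23 of the Ly49 family on the side of Klrc1. Klra7, Klra23 and the transcript AK080185 had similar changes, -1.26, -1.30 and -1.25. Whether their probes read separate transcripts was not tested. Among the genes other than the receptors described here, Klra4 and Klra3 had the deviations most like those of Klrc1 (r = 0.942 and 0.941), and Klrc3 was closer still. Among NKRP1 and other lectin-like neighbours, 0 of 4 tested passed, with -0.48 ± 0.19 for Cd69 (limma adjusted p = 0.112) and 0.39 ± 0.14 for Klrb1c (adjusted p = 0.0921).

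**Figure D5:**
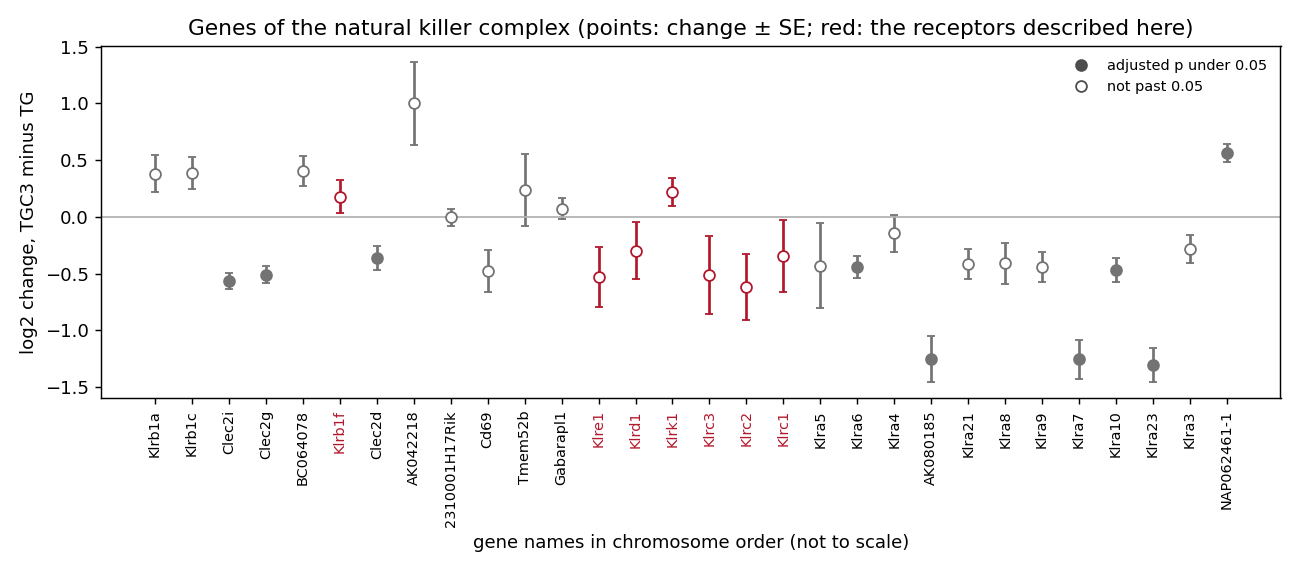
Fitted log2 change, TGC3 minus TG, with its SE, of the 30 tested genes of the NK gene complex in their order along the chromosome. The receptors described here lie between -0.62 (Klrc2) and 0.22 (Klrk1), and the values farthest below 0 are those of Klra23, Klra7 and AK080185.

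Promoter windows around the RefSeq start (GRCm38.p6) were at hand for 6 of the 9 receptors, Klrg1, Klrd1 and Klri2 being the others. They were searched on both strands. The letters TGTGGT, a RUNX core, occurred once in Klrc1 and in Klrk1, in 2 places in Klrc2 and in Klrc3, and in one of the Klre1 windows, against 16.8% of all 32851 windows. The letters TGANTCA, of AP-1, occurred in Klrc2, Klrc3 and Klrk1 but not in the Klrc1 window, against 7.81% of all windows. The letters TTCNNNGAA, of STAT factors, were in the Klrb1f window alone, against 8.30%. The letters GGTGTGA, of T-box factors, were in none of them, against 3.98%. The Klrc2 and Klrc3 windows are near copies over the bases compared, so that their matches are not separate.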

How the data were processed

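Each array of 45018 spots gave a processed signal, a linear intensity that Feature Extraction had background-subtracted and detrended, per the file headers. The headers give its version as 10.7.3.1 and the notes on processing from the submitters as 10.7.1.1. The deposited matrix is on a log2 scale with a median of 5.57 in all 6 columns, and served as an alternative. How it was made is not given in the sources used here. Its sorted values differed from those of TGC3 1 by at most 0.0066, as after quantile normalization, which gives all arrays the same values. It gave 2203 genes higher and 1407 lower, against 2197 and 1413 by quantile normalization here. These alternatives are therefore not separate.

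The log2 signal was scaled by each array's 75th percentile. Spots marked as outliers removed 11 probes, 0 spots were saturated, and a probe was kept if it was well above background on 3 arrays or more, whatever the group (25103 probes). Each gene, by its name in the files, was read by its brightest kept probe. TGC3 was compared with TG in limma 3.58.1 (R 4.3.3, lmFit and eBayes), two-sided, and the same settings were checked on simulated data. Arrays give no counts, so their number limits the precision. Figures used matplotlib 3.10.9 and sequences Python 3.11.15.

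The receptors and lists were chosen with earlier results of these data known. Named genes are all 9 receptors, from every list up to 3 genes that passed and had the largest changes (or up to 2 with the smallest p where none passed), 9 genes chosen by name (H2-T23, Hcst, Tyrobp, Tbx21, Il2rb, Zeb2, Cx3cr1, Il7r and Cxcr3) and the 5 genes most like Klrg1 and Klrd1. The results of some list genes are not reported here. Vav1, Clec2d, Cdh1, Eomes, Lyz1, Cd68 and Csf1r were chosen after their values were seen. So were the genes most like Klrc1 and the neighbours named in the NK gene complex. Deviations of same-numbered arrays of the groups correlated at 0.00 to -0.10. With 3 arrays in a group this cannot decide whether the numbers pair samples, and the main test treated them as unpaired. Alternatives were other normalizations, backgrounds, filters, probe rules, eBayes settings, array weights, a replicate block and leaving out each array. The slide could not be a block, since each held 1 group. After the data were seen, normexp with 7 aberrant backgrounds of TG 3 replaced was added.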

Additional observations from a re-analysis of the deposited data

How the results depend on the processing

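Genes higher and lower in TGC3 numbered 2725 and 1549. Centring on the median turned the split to 1803 and 4768 and moved the median change of all genes to -0.18, against -0.01; all 8 receptors kept their sign there and none passed. Normexp background correction left 0 and 1, and replacing the aberrant backgrounds, an alternative chosen after seeing the data, gave 2043 and 1869. Without a filter 578 genes were lower, with array weights 2414, and a replicate block left 1802 higher and 556 lower. Leaving out an array in turn gave 1754 to 2360 higher and 573 to 1503 lower. Of the receptors, 0 were higher and 0 lower in every alternative but array weights (1 lower, Klrc2) and leaving out an array (0 to 3 lower, the 3 being Klrc1, Klrc2 and Klrc3 without TGC3 2). The replicate block changed no receptor's call. Under normexp the changes of Klrd1 and Klrc1 took the opposite sign, at 0.16 (limma adjusted p = 0.855) and 0.039 (adjusted p = 0.966). With the aberrant backgrounds of TG 3 replaced, normexp gave both the sign of the main fit. The changes were then -0.26 for Klrd1 (adjusted p = 0.449) and -0.31 for Klrc1 (adjusted p = 0.461). The cause was not tested further. Klrc1 minus Klrd1, -0.05 with all arrays, ran between -0.23 and 0.28 with an array left out, 0.28 being without TGC3 1. Over 17 alternatives Klrg1 ran between 0.29 and 0.87, its adjusted p between 0.0818 and 0.722, and Klrk1, Klrb1f, Klrc2, Klrc3 and Klre1 kept the sign of their change.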
